A study of Mus musculus with 16 samples.

Results

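The stearoyl-CoA desaturase genes Scd3, Scd2, Scd4 and Scd1 lie next to each other on mouse chromosome 19, and the data are histone-mark maps of this cluster in the intestinal epithelium with and without the corepressor NCoR1. A region belonged to the cluster where its summit was nearer to a transcription start of one of the 4 genes than to that of any other protein-coding gene, within 50 kb. The genes were chosen by their listed regions, KO-higher acetylation above all, so the counts and folds of regions are a description. The rule took 74 of the 23511 regions in the 10 distinct lists of the series, of which 48 were at Scd2, 14 at Scd3, 11 at Scd1 and 1 at Scd4. The knockout (KO) group consisted of C57BL/6 neonates at postnatal day 12 with an intestinal deletion of Ncor1 (genotype ΔIECUN). The wild-type (WT) group was C57BL/6 neonates of the same age (F/FUN). The suffix UN is carried by both genotypes and is not spelled out in the sources used here, which also do not name the Cre driver. Jejunal epithelial cells of each genotype were profiled by ChIP-seq for 6 marks, H3K27ac, H3K9ac, H3K4me3, H3K4me1, H3K9me3 and H3K27me3, with 1 library per mark and genotype. The 4 input libraries (2 KO, 2 WT) were not analysed here.

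Stearoyl-CoA desaturases are enzymes of the endoplasmic reticulum that place a double bond in saturated fatty acids, turning stearate into oleate and palmitate into palmitoleate, the monounsaturated fatty acids used for triglycerides, phospholipids, wax and cholesterol esters. In mice Scd1 is the main form in liver and fat, Scd2 is prominent in brain and in tissues of newborns, Scd3 is best known from skin glands and Scd4 from heart. Transcription of these genes is driven by SREBP-1c and by nuclear receptors such as LXR, and NCoR1 is a corepressor that brings histone deacetylase activity to such receptors. H3K27ac and H3K9ac mark active promoters and enhancers, H3K4me3 marks promoters, H3K4me1 enhancers, H3K27me3 Polycomb-silenced chromatin and H3K9me3 heterochromatin.

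Each list holds regions in which the library of one genotype exceeded that of the other, which served as its control when peaks were called. A region is called KO-higher or WT-higher accordingly, its pileup is the tag depth at the summit in the library that was higher, and its fold is that pileup over the local background in the other genotype. Both are the authors' values. With 1 library per mark and genotype there is no replicate check, the pileup of the other genotype is not listed, and no test of genotype was made. A lower level of a mark per cell and fewer cells carrying it cannot be told apart in such bulk libraries. Depth ranged from 27946003 to 47976125 tags over 12 libraries, and 23925163 to 32444815 remained without duplicates. Of the enterocyte markers, 7 of 9 had a KO-higher active mark (H3K27ac, H3K9ac or H3K4me3), beside 12.4% of all genes, and 2 of 9 a WT-higher one (these or H3K4me1), beside 27.7%. The counts were 0 of 5 and 0 of 5 for immune cells, 0 of 4 and 0 of 4 for stromal cells, 0 of 2 and 1 of 2 for endothelial cells, and 1 of 2 and 2 of 2 for goblet and endocrine cells. Lists of differences do not show which cell types were present, and a part of cell composition in the results was not tested.

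Reference sequence is printed here to set the acetylated places of the paralogs side by side. Shown are the plus strands, in mm9, of 300-bp windows centred on the summit of the KO-higher H3K27ac region with the highest fold at Scd3, Scd4 and Scd1. These are chr19:44320821-44321120 beyond the 3′ end of Scd3, chr19:44388891-44389190 upstream of Scd4 and chr19:44464031-44464330 beyond the 3′ end of Scd1. The last is chr19:44370690-44370989, in an intron of Scd2, the window of the KO-higher H3K9ac region with the highest fold in the cluster. Capitals mark CCAAT on either strand, the motif bound by NF-Y.
Scd3: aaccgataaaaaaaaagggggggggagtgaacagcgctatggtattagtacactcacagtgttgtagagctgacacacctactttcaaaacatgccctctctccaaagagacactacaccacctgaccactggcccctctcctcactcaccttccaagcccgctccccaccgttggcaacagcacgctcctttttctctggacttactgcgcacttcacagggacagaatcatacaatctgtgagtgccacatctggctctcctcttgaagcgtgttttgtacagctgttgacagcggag
Scd4: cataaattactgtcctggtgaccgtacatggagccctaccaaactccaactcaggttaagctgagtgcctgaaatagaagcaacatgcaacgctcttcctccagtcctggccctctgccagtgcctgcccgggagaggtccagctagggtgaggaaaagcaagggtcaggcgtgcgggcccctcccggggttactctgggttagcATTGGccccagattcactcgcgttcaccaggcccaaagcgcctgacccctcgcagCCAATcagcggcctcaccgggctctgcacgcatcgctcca
Scd1: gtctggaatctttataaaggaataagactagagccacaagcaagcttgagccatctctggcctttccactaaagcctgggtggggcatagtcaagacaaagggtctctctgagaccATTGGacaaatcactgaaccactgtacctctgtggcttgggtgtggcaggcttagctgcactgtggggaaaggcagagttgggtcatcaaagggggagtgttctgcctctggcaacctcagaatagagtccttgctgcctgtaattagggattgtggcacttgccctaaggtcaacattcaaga
Scd2 intron: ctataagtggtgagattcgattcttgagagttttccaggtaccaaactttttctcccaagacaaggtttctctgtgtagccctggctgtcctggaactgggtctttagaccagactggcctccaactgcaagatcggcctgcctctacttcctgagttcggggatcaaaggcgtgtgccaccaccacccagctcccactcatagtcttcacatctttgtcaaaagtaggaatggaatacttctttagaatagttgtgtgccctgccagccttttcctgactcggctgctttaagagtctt

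The Scd3 window covers a KO-higher H3K9ac region (chr19:44320886-44321107) and a WT-higher H3K27me3 region (chr19:44320949-44321099) as well. CCAAT stood in 2 of the 4 windows, at bases 206 to 210 (minus strand) and 261 to 265 (plus) at Scd4, and 117 to 121 (minus) at Scd1. A further 4 motifs were searched on both strands. These were the LXR-type direct repeat (GGTCA, any 5 bases, GGTCA), the PPAR and HNF4 type (GGTCA, any 2 bases, GGTCA), TCACNCCAC (the sterol response element core) and GGGCGG (the GC box). None of these letters was in the 4 windows. Over windows of all 36 KO-higher H3K27ac regions of the cluster, CCAAT was in 10 (27.8%) and in 27.5% of the 7094 windows of the whole list. The GC box was in 6 (16.7%) against 8.78% of the list. Both direct repeats were in 0 windows of the cluster, against 0.155% of the list for each, and the sterol core was in 0, against 1.42%. These matches describe letters only. GC content of the windows was 45.0% to 62.3% at the cluster, with a median of 52.2%, against a median of 52.7% for the list.

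The cluster spans 204440 bp from the start of Scd3 to the start of Scd1. In the mm9 annotation Scd3 (ENSMUSG00000025202.6) lies at chr19:44277759-44318506, Scd2 (ENSMUSG00000025203.5) at chr19:44368166-44381354 and Scd4 (ENSMUSG00000050195.8) at chr19:44407582-44421233, all on the plus strand. Scd1 (ENSMUSG00000037071.2) lies at chr19:44468941-44482199 on the minus strand, so that Scd4 and Scd1 point towards each other. The spaces between neighbours are 49660 bp from Scd3 to Scd2, 26228 bp from Scd2 to Scd4 and 47708 bp from Scd4 to Scd1. The coding sequences are closely related, with 91.5% identity between Scd3 and Scd1, 90.4% between Scd2 and Scd1 and 84.2% to 88.3% among the pairs Scd3 and Scd2, Scd3 and Scd4, and Scd2 and Scd4, while Scd4 and Scd1 share 85.6%. The sources used here do not say how tags that match several paralogs were placed, so regions inside coding exons are less certain than those between genes. Of the 36 KO-higher H3K27ac regions, 28 were between genes, 7 in introns and 1 in a coding exon.

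All 4 genes had KO-higher H3K27ac, against 11.6% of 21693 protein-coding genes, and none had a WT-higher H3K27ac region, against 7.58%. The count was 3 of 4, without Scd4, with starts of all annotated genes and also at a fold of at least 4. These shares stand beside a choice of genes made with the same contrast, so nothing is read from them. The cluster held 36 of the 7111 KO-higher H3K27ac regions (0.506%, 95% Wilson interval 0.366% to 0.700%, counting error only), which is 8.45% of the 426 on chromosome 19. They were divided unequally, with 20 at Scd2, 8 at Scd3, 7 at Scd1 and 1 at Scd4. This division rests on the gene starts used, because with starts of all annotated genes, which include 2 miRNA genes inside the cluster, Scd2 had 8, Scd3 8, Scd1 7 and Scd4 0. With protein-coding starts, among 2514 genes with such a region, 5 had more than Scd2, 87 more than Scd3, 114 more than Scd1 and 1270 more than Scd4. Folds were 2.36 to 9.40 at Scd2 (median 5.85), 3.02 to 6.65 at Scd3 (median 5.45), 2.88 to 10.7 at Scd1 (median 5.78) and 2.39 at Scd4. The medians at Scd2, Scd3 and Scd1 were above the 95th percentile of the whole list (4.70), whereas the value at Scd4 was below the list's median of 2.52. Pileups were not high in the same way, with a median of 46.5 at the cluster and 71 over the list.

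**Figure D1:**
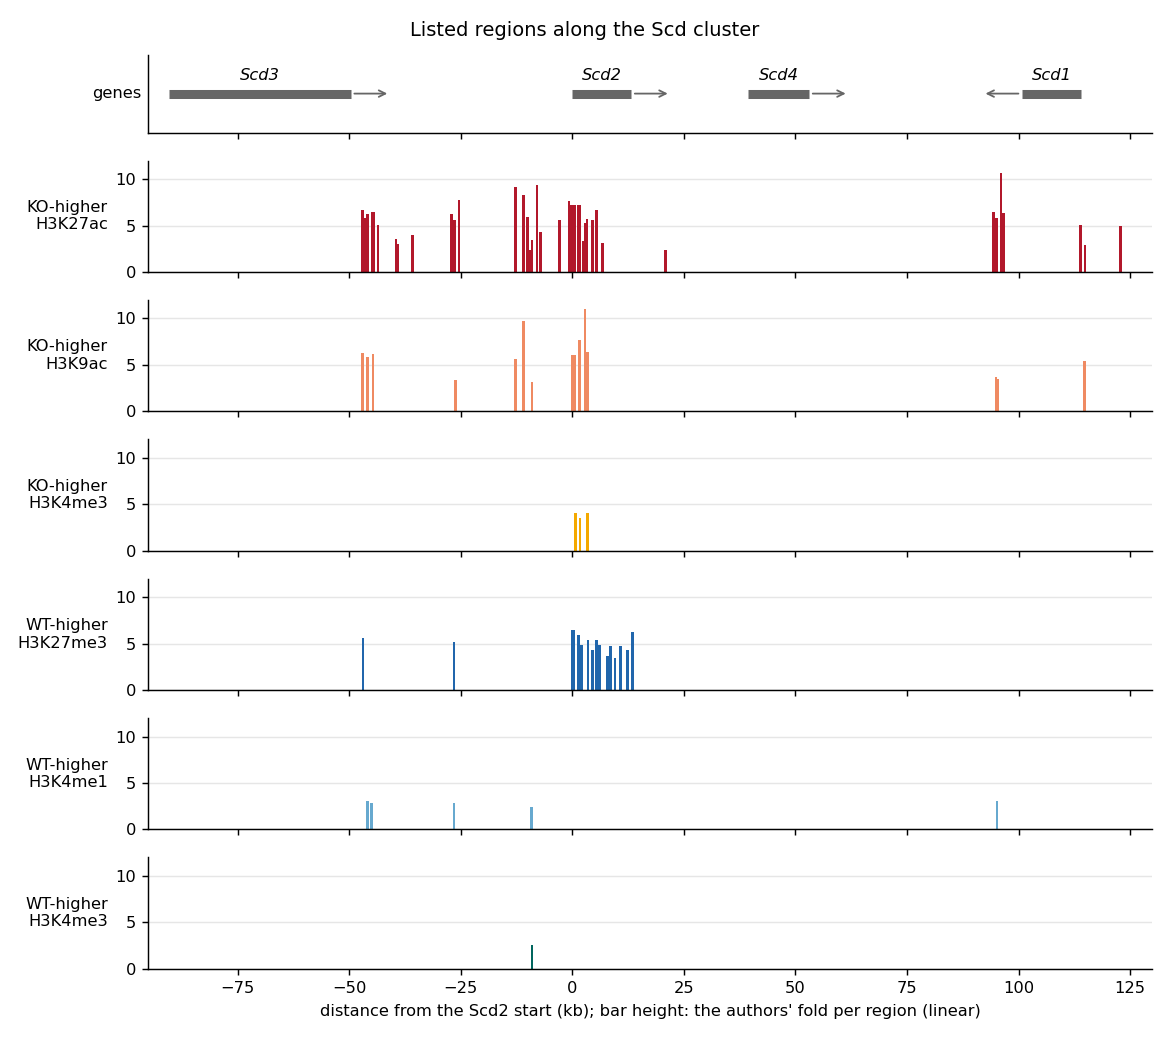
Regions of the 6 lists with a member, along the 4 genes. The x axis is the distance from the Scd2 start in kb, bar height is the authors' fold (linear), the 3 KO-higher lists are above the 3 WT-higher lists, and arrows show the direction of transcription; bars are drawn at least 0.6 kb wide. KO-higher H3K27ac stands in blocks beyond the Scd3 end, upstream of and within Scd2, and beyond the Scd1 end, with 1 region near Scd4, while WT-higher H3K27me3 lies mainly over Scd2.

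H3K9ac followed the same places but not Scd4. KO-higher H3K9ac was at 3 of the 4 genes, against 4.02% of all genes, and WT-higher H3K9ac at 0 of 4, against 7.63%. The 14 KO-higher regions were 0.743% of the 1883 in the list and 13.3% of the 105 on chromosome 19, with 8 at Scd2 (4 with starts of all annotated genes), 3 at Scd3 and 3 at Scd1. Folds were 3.20 to 10.99 at Scd2 (median 6.27), 5.90 to 6.34 at Scd3 (median 6.19) and 3.52 to 5.41 at Scd1 (median 3.72), beside a list median of 2.91. All 14 shared bases with KO-higher H3K27ac, whereas 38.9% of the 1883 regions of the H3K9ac list did. Seen from the other mark, 13 of the 36 H3K27ac regions (36.1%) shared bases with H3K9ac, against 10.24% of that list.

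H3K4me3 was KO-higher at Scd2 alone among the 4 genes, against 0.3% of all genes. Its 3 regions, of 131 in the list and of 4 on chromosome 19, had folds of 4.06, 3.53 and 4.09, near the list's median of 4.32. WT-higher H3K4me3 was also at 1 of the 4 genes, again Scd2, against 15.3% of all genes. KO-higher H3K9me3 was at 0 of 4 (2.28% of genes) and WT-higher H3K9me3 at 0 of 4 (1.09%). WT-higher H3K4me1 was at Scd3, Scd2 and Scd1, against 7.61% of genes, with 5 regions of fold 2.45 to 3.07 beside a list median of 2.94. WT-higher H3K27me3 was at Scd2 and Scd3, against 0.867% of genes. Its 15 regions were 3.80% of the 395 in that list and 15 of its 19 regions on chromosome 19. The Wilson interval of 2.31% to 6.17% covers counting error only and treats neighbouring regions as independent. Merged within 1 kb, 5 regions remained at Scd2 and 1 at Scd3.

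**Figure D2:**
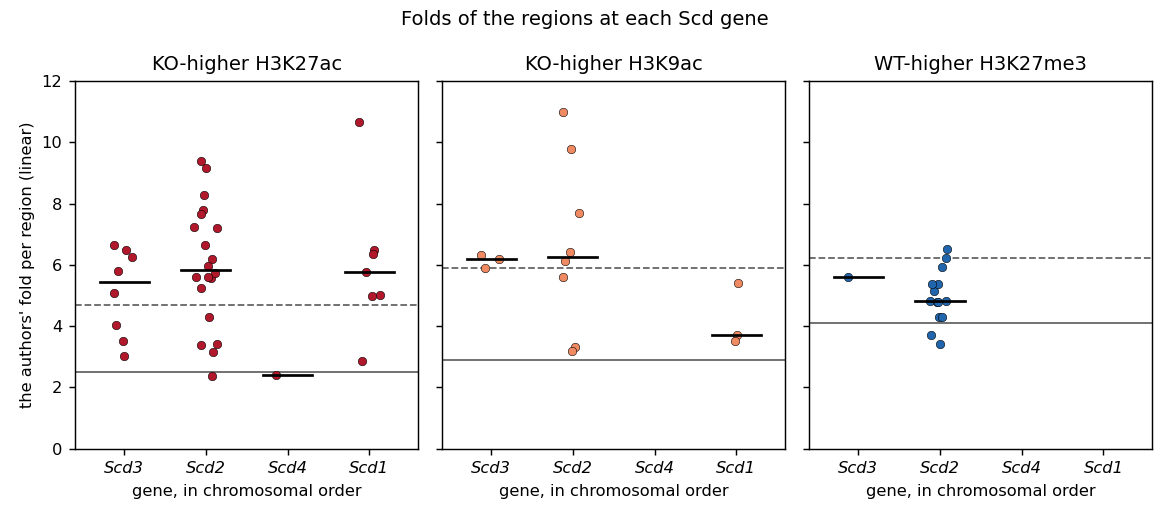
Fold of each region at each gene, with the authors' fold on a linear axis and genes in chromosomal order. Points are regions, black bars the median per gene, and grey lines the median (solid) and 95th percentile (dashed) of the whole list. KO-higher H3K27ac medians at Scd3, Scd2 and Scd1 (5.45, 5.85 and 5.78) lie above the dashed line at 4.70, Scd4 has 1 point at 2.39, and WT-higher H3K27me3 has 14 points at Scd2 and 1 at Scd3.

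Scd2, the paralog prominent in newborn tissues, had regions of each of the 6 lists found in the cluster. With starts of all annotated genes it had 4 of the 6, with 0 WT-higher H3K4me3 and 0 WT-higher H3K4me1 regions. Of its KO-higher H3K27ac regions 13 had their summit upstream of the start and 7 within the gene, and none lay more than 6575 bp downstream of the start. H3K9ac had 4 upstream and 4 within the gene, and the 3 H3K4me3 regions were within the gene. At the start itself an H3K27ac region of 1549 bp (chr19:44367455-44369003) had a fold of 7.23 and a pileup of 78. Over it lay KO-higher H3K9ac (chr19:44367841-44368903, summit in the 5′ UTR, fold 6.12) and KO-higher H3K4me3 (chr19:44368641-44368961, 5′ UTR, fold 4.06). A WT-higher H3K27me3 region (chr19:44367906-44368675, 5′ UTR) had a fold of 6.51 and a pileup of 21.3, the 11th highest fold of its list.

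Further into Scd2 the KO-higher marks again stood together. An intronic H3K27ac region at chr19:44369262-44370140 had a fold of 7.21, with H3K9ac at 7.69 and H3K4me3 at 3.53 inside it. At chr19:44370728-44370960, also intronic and printed as Scd2 intron, H3K9ac reached 10.99, the 4th highest fold of that list, with H3K27ac at 5.24. A region at chr19:44371180-44371739 had H3K27ac at 5.74, H3K9ac at 6.41 and H3K4me3 at 4.09. Each of the 3 KO-higher H3K4me3 regions thus overlapped both acetylation marks.

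The highest H3K27ac folds of Scd2 lay upstream of it. The highest was 9.40, rank 8 of 7111, 8068 bp upstream and with no listed H3K9ac. At chr19:44355098-44355653, 12905 bp upstream, H3K27ac had a fold of 9.16 and H3K9ac of 5.60. At chr19:44356894-44357500, 11047 bp upstream, H3K27ac had a fold of 8.30, a pileup of 139 and a −log10 p of 79.9, the authors' 6th highest. H3K9ac at that place had a fold of 9.78, the 6th highest of its list. H3K27ac regions with no listed H3K9ac also stood 27338, 25590, 10221 and 925 bp upstream, with folds of 6.21, 7.80, 5.95 and 7.65. The others without it were 9570, 6808 and 3034 bp upstream, with lower folds of 2.36, 4.29 and 5.58.

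Marks of both directions met at 2 places upstream of Scd2. At chr19:44341303-44342065, 26348 bp upstream, KO-higher H3K27ac (fold 5.61, pileup 116) shared bases with KO-higher H3K9ac (3.33), WT-higher H3K4me1 (2.90) and WT-higher H3K27me3 (5.15). At chr19:44358814-44359416, 9045 bp upstream of Scd2, H3K27ac had its highest pileup of the cluster, 202, with a KO-higher fold of only 3.41, and H3K9ac had a pileup of 104.8 and a fold of 3.20. The single WT-higher H3K4me3 region of the cluster (chr19:44358816-44358964, fold 2.60, pileup 46) lay inside it. A WT-higher H3K4me1 region (chr19:44358660-44358940, fold 2.45, pileup 34) overlapped its upstream edge. Such an overlap with KO-higher H3K27ac was found for 26 of the 4166 WT-higher H3K4me3 regions of the series (0.624%).

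WT-higher H3K27me3 regions were spread over Scd2 from its start to its 3′ end. Of its 14 regions 1 was upstream, 12 had their summit within the gene and 1 lay just beyond the 3′ end, at chr19:44381365-44381515, with a fold of 6.21. Folds were 3.43 to 6.51 (median 4.81, list median 4.12) at pileups of 13.6 to 24.7. Within the gene they fell in the 5′ UTR (1), introns (6), coding exons (3) and the 3′ UTR (2). With starts of all annotated genes 5 of the 14 stayed with Scd2. With protein-coding starts only the annotated gene Tmem181b-ps had more regions of this list (21), and Dynlt1b, next in order, had 4. The low pileups mean that each region rests on few tags, and 4 of the 14 regions remained at a −log10 q of at least 5.

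The H3K27me3 regions of Scd2 were split by overlap with KO-higher acetylation. KO-higher H3K27ac at Scd2 ended at chr19:44374767, so H3K27me3 regions beyond it could not share bases with it. Their place among those without overlap was fixed by position. The 7 H3K27me3 regions that shared bases with KO-higher acetylation had folds of 4.29 to 6.51 (median 5.36). They lay from 26665 bp upstream to 5269 bp downstream of the start. The 7 without it had folds of 3.43 to 6.21 (median 4.77) and lay 5902 to 13283 bp downstream. Over the cluster 8 of 15 WT-higher H3K27me3 regions (53.3%) shared bases with KO-higher H3K27ac. For H3K9ac the number was 6 and for KO-higher H3K4me3 it was 3. The whole list of 395 regions held 15, 6 and 3 such regions, so the cluster held 8 of the 15 and every one of the 6 and of the 3. Among 188 genes with WT-higher H3K27me3, 20 (10.6%) also had KO-higher H3K27ac, Scd2 and Scd3 among them, a share near the 11.6% of all genes.

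**Figure D3:**
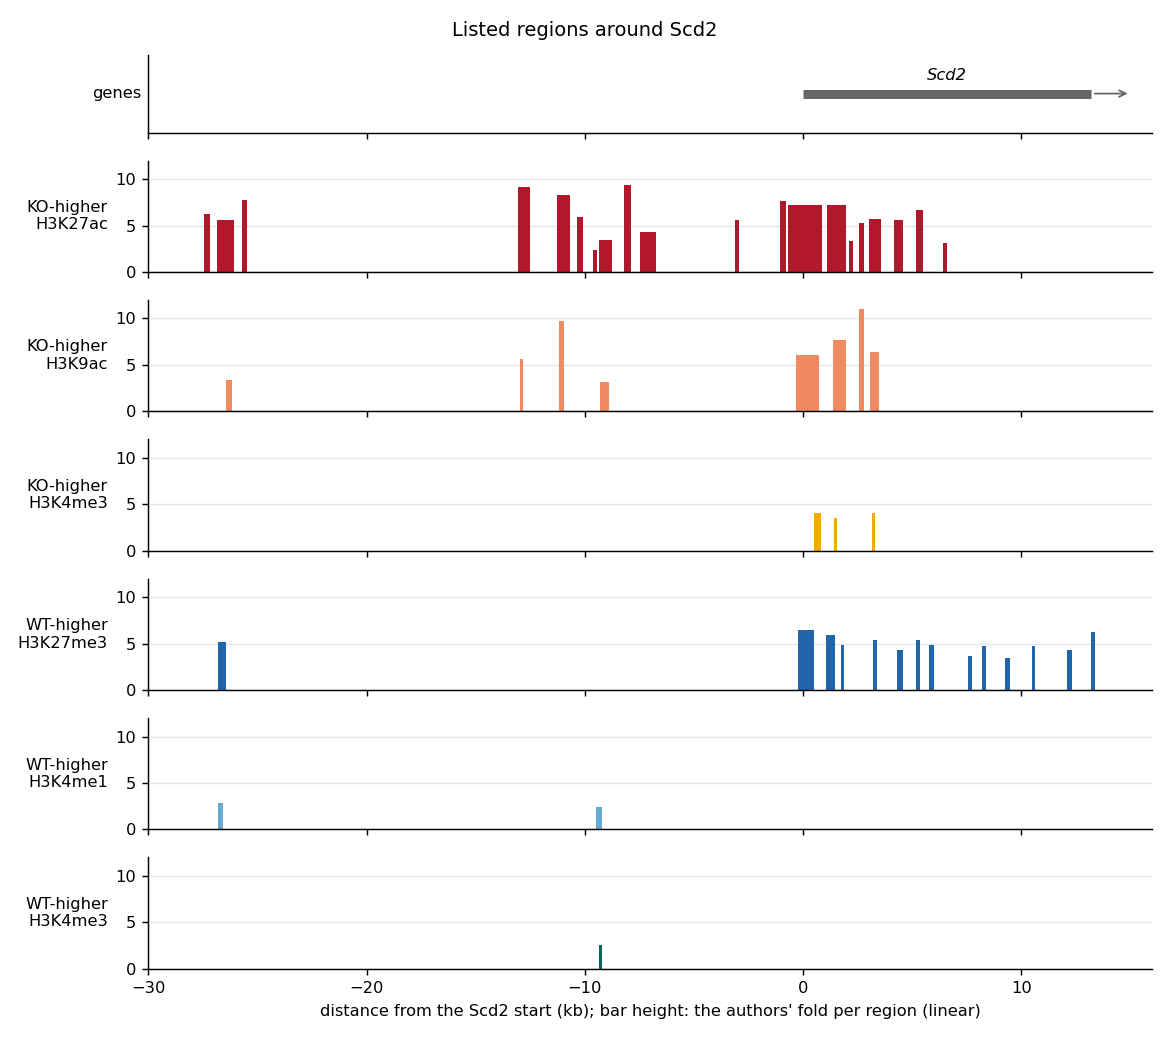
Regions from 30 kb upstream of the Scd2 start to 16 kb downstream. The x axis is the distance from the start in kb, bar height is the authors' fold (linear), and bars are to scale in width, at least 0.1 kb. KO-higher H3K27ac ends at about 6.6 kb (last summit 6575 bp), while WT-higher H3K27me3 goes on past the end of the gene (last summit 13283 bp).

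At Scd1, the main desaturase of liver and fat, the highest H3K27ac folds were not at the start but beyond the 3′ end. The region at chr19:44463928-44464311, 18018 bp downstream of the start in the direction of transcription and printed as Scd1, had the highest H3K27ac fold of the cluster (10.7, pileup 44, rank 6 of 7111), and no other listed mark. Its neighbour at chr19:44462807-44463499 had a fold of 5.78 with a pileup of 171 and a −log10 p of 72.8, rank 7 of the list. That neighbour shared bases with 2 KO-higher H3K9ac regions (folds 3.72 and 3.52) and with a WT-higher H3K4me1 region (fold 3.07). A further pair of H3K27ac regions there had folds of 6.47 and 6.35.

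The Scd1 start had lower H3K27ac folds than the regions beyond the 3′ end, but not a lower H3K9ac fold. An intronic region 364 bp downstream (chr19:44481794-44482067) had an H3K27ac fold of 5.03 at a pileup of 24, and a region 542 bp upstream (chr19:44482715-44482966) had 2.88 at a pileup of 19. H3K9ac beside the latter place (chr19:44482654-44482797) had a fold of 5.41 at a pileup of 21.7. Beyond the 3′ end the H3K9ac folds were 3.72 and 3.52, at pileups of 65.9 and 62.3. A last H3K27ac region 8648 bp upstream had a fold of 4.99. No H3K4me3 region of either direction and no WT-higher H3K27me3 region was at Scd1. KO-higher H3K27me3 could not be seen, because the KO list of that mark repeats the WT list.

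Regions assigned to Scd3, best known from skin glands, all lay beyond its 3′ end, in the space towards Scd2. Scd3 has 3 annotated transcripts, and the assignment rests on the one that starts inside the gene, at chr19:44312305. With 1 start per gene, 3 of the 8 H3K27ac regions stayed with Scd3, and the authors' own table put its 2 H3K4me1 regions 44504 and 45163 bp from the Scd3 start. The 8 H3K27ac regions spanned chr19:44320830-44332291. The 4 nearest to the gene had folds of 6.65, 5.81, 6.26 and 6.48 at pileups of 65, 58, 117 and 102, and the farthest 3 had folds of 3.52, 3.02 and 4.02 at pileups of 14 to 20. Those at 6.65, 6.26 and 6.48 shared bases with KO-higher H3K9ac (folds 6.34, 5.90 and 6.19). The WT-higher H3K27me3 region in the printed Scd3 window had a fold of 5.61 at a pileup of 17.9, and the 2 WT-higher H3K4me1 regions had folds of 3.03 and 2.84.

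Scd4, best known from heart, had 1 region. This H3K27ac region at chr19:44388721-44389164 lay 18541 bp upstream of Scd4, in the space that follows Scd2, with a fold of 2.39, a pileup of 56 and a −log10 p of 8.88. No region of any other list was there. KO-higher H3K4me1 and KO-higher H3K27me3 could not be seen, because the KO lists of these marks repeat the WT lists.

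WT-higher H3K4me1 occurred at the acetylation blocks of all 3 other genes. Each of the 5 regions shared bases with KO-higher H3K27ac, whereas 2.99% of the 2774 regions in the H3K4me1 list did. In other words 5 of the 83 such regions of the series were in the cluster. For 3 of the 5 the overlap included KO-higher H3K9ac. The authors' table names Scd3 for 2 of them, Scd2 for 2 and Scd1 for 1.

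When KO-higher H3K27ac regions were joined across spaces of up to 5 kb, a distance chosen after the positions were seen, the cluster had 7 stretches. The largest, chr19:44355098-44374767, held 17 regions over 19670 bp upstream of and within Scd2, with 7 KO-higher H3K9ac, 3 KO-higher H3K4me3 and 7 WT-higher H3K27me3 regions. The second spanned 11462 bp beyond the Scd3 end with 8 regions. Stretches of 3 and 4 regions lay 25590 to 27338 bp upstream of Scd2 and beyond the Scd1 end. The other 3 held 2, 1 and 1 regions, at the Scd1 start, upstream of Scd1 and upstream of Scd4. No region nearest to an Scd start lay beyond the 50 kb limit, and the farthest member was 27338 bp away, at Scd2, with a fold of 6.21. Next to it were WT-higher H3K4me1 at 26743 bp (2.90) and WT-higher H3K27me3 at 26665 bp (5.15).

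The RNA values used were the log2 fold change and FDR of the authors' deposited table, for genes that it places at WT-higher H3K4me1 regions. The shares and ranks given here are among these selected genes, not among all genes. The log2 change was read as KO over WT. The 12 per-library RNA columns of that table belong to no sample here and were not used. The table holds 1549 of the genes considered, of which 77 (4.97%) had higher RNA and 149 (9.62%) lower RNA in KO at an FDR under 0.05. In the authors' deposited table the log2 change was 1.85 for Scd1 (FDR 1.32e-10) and 1.72 for Scd2 (FDR 1.23e-81). Both passed, so RNA of the 2 paralogs with the highest H3K27ac folds was higher in KO. By highest H3K9ac fold, Scd3 (6.34) stood above Scd1 (5.41). In log2 change 2 genes of higher RNA were above Scd1 and 3 above Scd2. A lower FDR than that of Scd1 was found for 45 genes, and a lower one than that of Scd2 for 1. Scd3 had a log2 change of −3.02 in the authors' deposited table with a p-value of 0.503 and an FDR of 1, which is no call in either direction. Scd4, which had no WT-higher H3K4me1 region, is not in the table. The sources used here do not say how the RNA was counted or how reads that match several paralogs were treated.

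Of 17 other protein-coding genes with a start within 500 kb of the cluster, 7 (41.2%) had a listed region, near the 38.6% of all genes with a region in any list. On the Scd3 side these were Abcc2, the MRP2 export pump (9 KO-higher H3K27ac regions, highest fold 5.30, and 8 KO-higher H3K9ac, highest 7.58), Erlin1 (6 H3K27ac, 4.10), Cutc (3, 3.34), Dnmbp (2, 3.31), Cwf19l1 (2, 4.28) and Cpn1 (1 WT-higher H3K9me3, 5.46). On the Scd1 side Pax2, a developmental transcription factor, had WT-higher regions alone, with 2 of H3K4me3 (2.56), 1 of H3K4me1 (2.78) and 1 of H3K9me3 (5.66). By mark, KO-higher H3K27ac was at Abcc2, Erlin1, Cutc, Dnmbp and Cwf19l1 among the 17, beside 11.6% of all genes. KO-higher H3K9ac was at Abcc2 alone, beside 4.02% of all genes. WT-higher H3K27me3 was at 0 of the 17, beside 0.867% of all genes.

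Over the highest fold in each of the 10 lists, the genes nearest to Scd1 by Euclidean distance were Glrx2 (4.43), Akr1b7 (4.72) and Abcg1 (4.84). Those nearest to Scd2 were Abca1 (5.58), Scd3 (7.32) and Abcg1 (9.05). Abca1, which exports cholesterol, and Scd2 were the 2 genes that had KO-higher H3K27ac, H3K9ac and H3K4me3 and WT-higher H3K27me3, among 28 genes with the KO-higher 3. The highest folds were 9.40, 10.99, 4.09 and 6.51 at Scd2 and 8.80, 6.67, 5.50 and 4.72 at Abca1.

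Other genes of fatty acid metabolism had KO-higher acetylation too. Their list was drawn up with earlier results of these data known. The 21693 genes they stand beside were not restricted to genes in use in this epithelium. Of the enterocyte markers, 7 of 9 had a KO-higher active mark, so a high share was not found at fatty acid genes alone. The shares that follow are therefore a description, and whether they are particular to this pathway was not tested. Of 43 genes matched, 26 (60.5%) had KO-higher H3K27ac, beside 11.6% of all genes, and 10 (23.3%) KO-higher H3K9ac, beside 4.02%. Their median highest H3K27ac fold, 2.73, was close to the 2.90 of all genes with such a region, and their H3K9ac median was 4.51 against 3.11. The fatty acid synthesis group had KO-higher H3K27ac at 4 of 12 genes (Acacb, Me1, Elovl5 and Elovl6). In that group Acly, Acaca and Fasn had no KO-higher region of any mark. The other desaturases had KO-higher H3K27ac at 2 of 6 (Fads3 and Degs2), and Cyb5b and Cyb5r3, listed as electron donors, at 2 of 2. Genes listed as users of the products, a group that includes the acyl-CoA synthetase genes and Plin2, had KO-higher H3K27ac at 10 of 11. Regulators had it at 8 of 12. KO-higher H3K4me3 was at 2 of the 43 (Srebf1 and Srebf2, the SREBP genes), which is 4.65% beside 0.3% of all genes. WT-higher H3K27ac was at 6 of the 43 (13.95%, beside 7.58% of all genes) and WT-higher H3K9ac at 2, Thrsp and Acsl5 (4.65%, beside 7.63%). WT-higher H3K4me3 was at 7 (16.3%, beside 15.3%), WT-higher H3K4me1 at 4, Acacb, Lpin1, Plin2 and Srebf1 (9.30%, beside 7.61%), and WT-higher H3K27me3 at 1, Elovl3 (2.33%, beside 0.867%). No H3K9me3 region of either direction was at any.

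Some pathway genes had more regions than Scd2 with its 20 of H3K27ac and 8 of H3K9ac. Ppara had 33 and 13 and Srebf1 24 and 15, while Plin2 had 8 and 10. By H3K27ac, the highest fold of the 43 genes was 6.75, below those of Scd1 and Scd2 and above Scd3 (6.65) and Scd4 (2.39). By H3K9ac it was 7.11, below Scd2 (10.99) and above Scd3 (6.34) and Scd1 (5.41). The highest KO-higher folds were 7.11 (H3K9ac) at Ppara, the receptor that drives fatty acid oxidation, 6.49 (H3K9ac) at Mlxipl, which encodes the carbohydrate sensor ChREBP, and 6.04 (H3K9ac) at Plin2, a coat protein of lipid droplets. The acyl-CoA synthetase genes Acsl3 and Acsl1 had 5.78 (H3K27ac) and 4.67 (H3K9ac), Srebf1, the SREBP-1 gene, 4.72 (H3K9ac), Acacb, an acetyl-CoA carboxylase, 4.34 (H3K9ac) and Insig2, which retains SREBP, 3.95 (H3K27ac). WT-higher folds were highest for H3K9ac at Thrsp (4.52), H3K4me1 at Plin2 (3.35), H3K27ac at Elovl7 (3.31) and H3K4me1 at Acacb (3.04). Of the list, the authors' deposited table holds 2 genes, and both had higher RNA in KO, Acacb with a log2 change of 1.08 (FDR 1.64e-09) and Plin2 with 0.92 (FDR 9.25e-29).

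**Figure D4:**
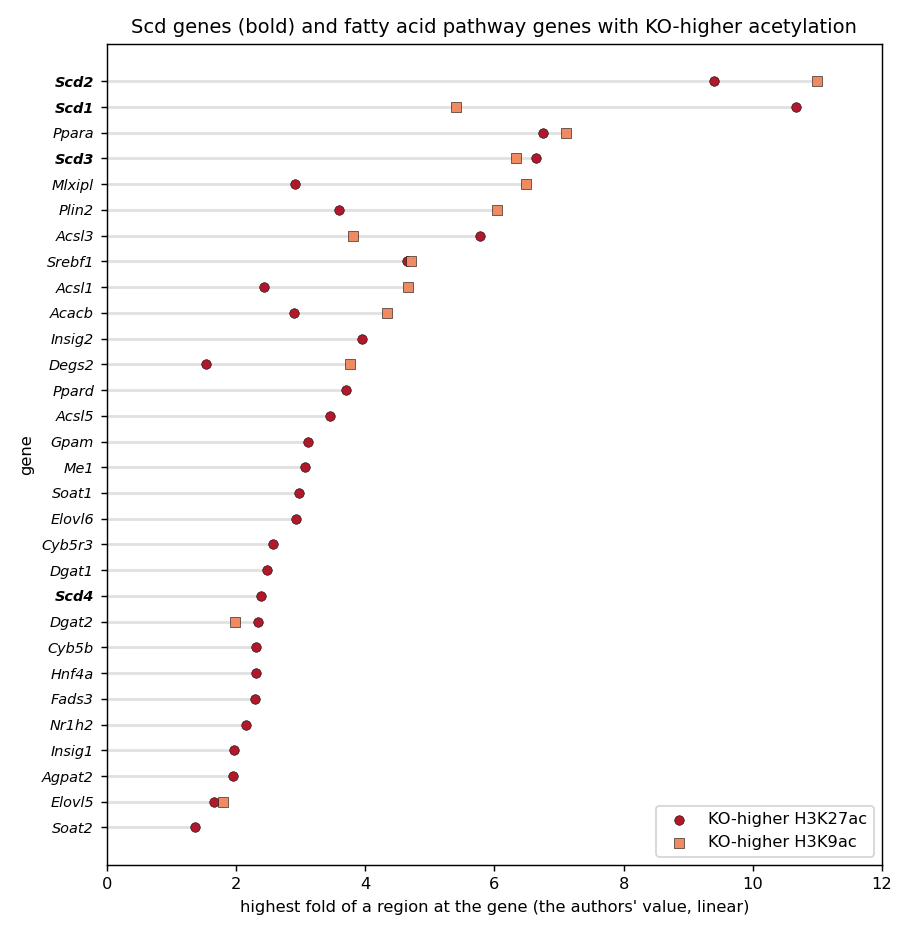
Highest fold of a KO-higher H3K27ac region (circles) and KO-higher H3K9ac region (squares) at each Scd gene (bold) and at each fatty acid pathway gene that has one, on a linear axis of the authors' fold. Scd2 (10.99) and Scd1 (10.7) stand at the top, Scd3 (6.65) lies between Ppara (7.11) and Mlxipl (6.49), and Scd4 (2.39) lies among the low values.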

How the data were processed

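Chromatin of jejunal epithelial cells was sequenced for 50 cycles and mapped to mm9, per the labels. According to the submitters' processing notes, the tools were HOMER 3.12, MACS2 2.1.1, Bowtie2 2.2.9 and CASAVA 1.8.2. The headers of the lists instead give 75 bp as the tag size and 2.0.10.20130419 as the MACS version, and this was not resolved. Regions were called against the other genotype's library at q 0.05, keeping 1 tag per position, per the file headers. For each region the authors deposited the summit pileup (a signal, with the larger library scaled down), its ratio to local background (the fold), and −log10 of the p-value and q-value. Of 12 lists, 2 (KO H3K4me1 and KO H3K27me3) repeat the WT lists, so 10 were used. Duplicate removal kept 56.0% of KO and 64.3% of WT H3K9ac tags, the lowest shares.

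The authors' deposited table with the repeated H3K4me1 list gives a log2 fold change, p-value and FDR of RNA per gene, taken to run KO over WT because HOMER names the baseline first in such columns. It also holds 12 per-library RNA columns that belong to no sample here. No calculation used them, but their values for Scd1, Scd2 and Scd3 were seen when the file was inspected.

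Regions were joined to GENCODE models on NCBIM37 (0 of 23378 placed regions passed a chromosome end) by the nearest start of a protein-coding gene within 50 kb of the summit. Starts of all annotated genes had been planned. They became the alternative once 2 annotated miRNA genes were seen inside the cluster. Regions shared bases at an overlap of at least 1 bp. Genes of chromosomes 18, Y and M were left out, leaving 21693. Of 44 pathway genes 43 were matched, and 1 was not analysed here. The sequence at 1 Scd2 region is not reported here. Named genes were the 4 Scd genes, the pathway genes with the 8 highest KO-higher and 4 highest WT-higher folds, neighbours within 500 kb with a region, and the 3 genes most like Scd1 and Scd2. Any other gene was named with its values known. Members and lists were chosen with earlier results of these data known. Intervals are 95% Wilson intervals, cover counting error only and treat neighbouring regions as independent. Assignment, overlap and motif search were tested on simulated data. Alternatives were other distance limits, start sets, q and fold minimums, merging and overlap rules. Python 3.11.15, pandas 2.3.3, NumPy 2.4.6, SciPy 1.17.1, Biopython 1.88 and Matplotlib 3.10.9 were used.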

Additional observations from a re-analysis of the deposited data

How the results depend on the processing

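Of the alternative values of the main counts, 32 stayed within 1.5 times the reported count and 8 moved. With starts of all annotated genes, a setting exchanged with the reported one after the data were seen, the KO-higher H3K27ac regions at the Scd genes were 23 (36 as reported) and WT-higher regions of any mark 9 (21 as reported). With a −log10 q of at least 5, WT-higher regions were 7. With a fold of at least 4, WT-higher regions were 13, and 9 KO-higher H3K9ac regions shared bases with H3K27ac (14 as reported). Merging within 1 kb left 12 KO-higher H3K27ac, 8 KO-higher H3K9ac and 11 WT-higher regions. Of the values of single genes 28 moved and 84 did not. With starts of all annotated genes Scd2 kept 8 H3K27ac, 4 H3K9ac and 5 WT-higher H3K27me3 regions with 0 of WT-higher H3K4me3 and H3K4me1, and Scd4 had 0 H3K27ac regions, as it also had at a fold of at least 4. Each count belongs to a list of fixed direction, so no setting could turn one round. No paired analysis was possible because each mark has 1 library per genotype and no test was made. Pileups were 13.6 to 24.7 at the WT-higher H3K27me3 regions, and the weakest KO-higher H3K27ac region had 14, so each of these rests on few tags.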
